A study of Mus musculus with 8 samples.

Results

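The genes described here encode the aminoacyl-tRNA synthetases. They were taken from the deposited expression table as the protein-coding genes whose names are an amino acid letter followed by "ars", with or without a closing 1 or 2, together with Farsa, Farsb and Eprs. The rule found 37 of the 56748 genes in the table. Of these, 17 have a name that ends in 2 and encode mitochondrial enzymes, and 20 encode cytosolic enzymes, including Gars and Kars, which serve both compartments. All 37 passed the filter on low values, an FPKM (sequenced fragments scaled by gene length and by library size) of at least 1 in at least 2 of 8 libraries, as did 11818 genes in all.

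The libraries came from 32D, a murine myeloid cell line that depends on interleukin-3, carrying either wild-type murine Jak2 (Jak2WT) or its V617F mutant (Jak2V617F). In each background, clones with intact glucose transporters (GLUT1/3 WT) were set against clones in which Slc2a1 (GLUT1) and Slc2a3 (GLUT3) had both been disrupted with CRISPR-Cas9 (dKO). Each of the 4 groups held 2 clones, numbered 1 and 3, each grown from a single cell. All cells spent 24 hours in low-supplement medium with 5 mM glucose, 1 mM glutamine, 10% fetal calf serum and 2 ng/ml interleukin-3. Jak2WT GLUT1/3 WT is thus a clone of 32D with added Jak2 and not the parental line, and a difference between groups can also be one between single clones.

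Aminoacyl-tRNA synthetases join each amino acid to its tRNA, which supplies the ribosome with its building blocks. They fall into class I and class II by the fold of the catalytic core, and several cytosolic members sit together in the multisynthetase complex. Many cytosolic members are known targets of ATF4, the transcription factor of the integrated stress response and of amino acid shortage, whereas the mitochondrial enzymes are encoded by separate nuclear genes and serve translation of the mitochondrial genome.

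Reads recovered from the FPKM values came to between 16846011 and 48884329 per library. In the dKO libraries Slc2a1 stood at 9.17 to 17.3 FPKM and Slc2a3 at 16.0 to 49.5, against 44.7 to 64.0 and 91.9 to 198 in the GLUT1/3 WT libraries. Of 12 myeloid progenitor markers, 5 reached an FPKM of 1 in some library, while Kit and Cebpa were at 0 in all of them and Mpo, Elane, Ctsg, Ms4a3 and Cd34 stayed under 1. The summed FPKM of that list was 219 to 248 in Jak2WT GLUT1/3 WT, 160 to 197 in Jak2WT dKO, 196 to 201 in Jak2V617F GLUT1/3 WT and 89.2 to 92.0 in Jak2V617F dKO. Erythroid markers, of which 7 of 9 reached an FPKM of 1 and none was at 0 throughout, summed to 94.0 to 112, 246 to 291, 553 to 910 and 2582 to 4679 in the same order. Megakaryocyte markers (5 of 6 reached 1, Gp1bb at 0) summed to 63.3 to 63.7, 85.3 to 90.3, 191 to 205 and 227 to 279. Mast cell and basophil markers (2 of 7 reached 1, Prss34 and Tpsb2 at 0) summed to between 121 and 222 over all libraries. None of the B cell, T cell and stroma markers reached 1. These lists moved with the groups compared below, and their part in the synthetase results was not tested. In RNA from whole cultures, fewer cells of a type and less RNA per cell cannot be told apart.

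The cytosolic synthetases were the more abundant set. Their mean level over the 8 libraries ran from 14.0 FPKM for Cars (cysteine) to 151.7 FPKM for Nars (asparagine), with a median of 47.9, and 19 of the 20 lay above 20 FPKM. The mitochondrial set ran from 2.08 FPKM for Ears2 (glutamate) to 24.3 FPKM for Lars2 (leucine), with a median of 5.04, and Lars2 alone exceeded 20 FPKM. FPKM is scaled by the deposited gene length, such as 2447 bases for Hars and 18102 for Eprs. Levels of different genes can be compared only as far as that length fits the transcript expressed, which was not checked. By mean level the 2 sets overlapped only where Lars2 and Rars2 (arginine) lay above Cars, and Lars2 also above Farsa, a subunit of the phenylalanine enzyme.

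The summed level of the 20 cytosolic members in Jak2WT GLUT1/3 WT was 1022 and 1055 FPKM, in Jak2WT dKO 1002 and 986, in Jak2V617F GLUT1/3 WT 1344 and 1361, and in Jak2V617F dKO 865 and 942. Both Jak2V617F GLUT1/3 WT clones thus stood above all other libraries and both Jak2V617F dKO clones below all others. The 17 mitochondrial members summed to between 111 and 128 FPKM in every library, lowest again in the Jak2V617F dKO clones. Jak2V617F GLUT1/3 WT was the group with the highest mean for 14 of the 18 purely cytosolic members and for both Gars and Kars, and Jak2V617F dKO the group with the lowest mean for 12 and 1 of these. Among mitochondrial members the highest group was spread over all 4 groups, with 6, 5, 4 and 2 members each.

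**Figure D1:**
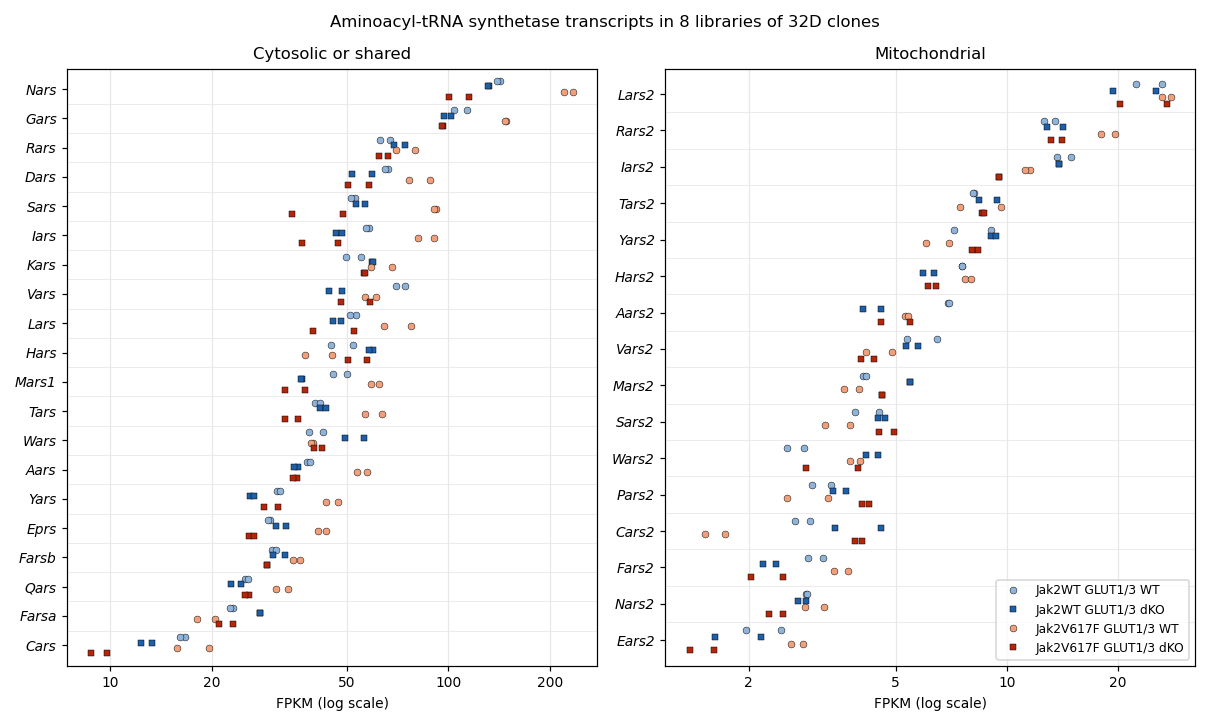
Level of 36 synthetase transcripts (FPKM, log axis) in the 8 libraries, with 20 cytosolic or shared members on the left and 16 mitochondrial members on the right, each ordered by mean level. Circles are GLUT1/3 WT clones and squares dKO clones, in blue for Jak2WT and red for Jak2V617F. For Nars the Jak2V617F GLUT1/3 WT clones lie to the right at 220 and 234 FPKM and the Jak2V617F dKO clones to the left at 100.2 and 115 FPKM.

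The first comparison asked how loss of both glucose transporters changed the synthetases in cells driven by Jak2V617F. Of the 20 cytosolic members 14 were lower in the dKO clones, with a median log2 fold change of -0.60 against -0.019 for all genes tested. Serine, asparagine and isoleucine synthetases fell the most, to about 0.456, 0.476 and 0.494 times the level of GLUT1/3 WT. The mitochondrial set split, with 4 lower and 3 higher. Over all 37 members, 18 fell and 3 rose at an adjusted p under 0.05, while 16.2% of all genes tested fell and 13.7% rose. Adjusted p-values are from limma on log2(FPKM + 1), with Benjamini-Hochberg adjustment over all 11818 genes, and fold changes on that scale understate the change of low genes. With 2 clones against 2, a permutation test of a single gene could not go below p = 0.333, so calls rest on the spread shared across groups and genes.

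Sars, which charges serine tRNA and also the tRNA of selenocysteine, read 92.0 and 90.4 FPKM in the GLUT1/3 WT clones and 34.4 and 48.9 FPKM in the dKO clones of the Jak2V617F background. The ranges did not overlap, although the dKO clones differed among themselves. Sars lies on chromosome 3 (108332181 to 108352525, reverse strand, GRCm39) and changed by a log2 fold change of -1.13 (SE 0.148, adjusted p = 0.00209). Nars, the most abundant member, read 220 and 234 FPKM against 100.2 and 115 FPKM. Its Jak2V617F dKO clones were the lowest of the 8 libraries, with a log2 fold change of -1.07 (SE 0.0899, adjusted p = 0.000527). Iars, the isoleucine enzyme of the multisynthetase complex on chromosome 13 (49835576 to 49887743, forward strand), read 81.0 and 90.5 FPKM against 36.9 and 47.3 FPKM. It had a log2 fold change of -1.02 (SE 0.122, adjusted p = 0.0015), again without overlap of the clones.

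Cars read 15.8 and 19.5 FPKM in the Jak2V617F GLUT1/3 WT clones and 8.78 and 9.75 FPKM in the dKO clones, a log2 fold change of -0.86 (SE 0.111, adjusted p = 0.00199). It had the lowest mean of the cytosolic members in every group. Tars, the threonine enzyme, read 56.7 and 63.8 against 32.8 and 36.0 FPKM, a log2 fold change of -0.79 (SE 0.0891, adjusted p = 0.00129). Mars1, which charges both initiator and elongator methionine tRNA, read 59.1 and 62.1 against 32.8 and 37.6 FPKM, a log2 fold change of -0.77 (SE 0.0925, adjusted p = 0.00152). Clone ranges did not overlap for any called member given in full, as the rule that chose these members required. Clones were apart for 31 of all 37 members in this comparison, called or not, so this adds no support. The other cytosolic members that fell were Eprs, Aars, Lars, Gars, Dars, Yars, Qars and Farsb, with log2 fold changes from -0.67 to -0.28. Eprs is the fused glutamate and proline enzyme of the complex and Qars its glutamine enzyme.

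The 6 cytosolic members that did not pass the test were Wars, Hars, Farsa, Kars, Rars and Vars. Hars, the histidine enzyme, read 45.4 and 37.7 FPKM in GLUT1/3 WT and 50.4 and 57.2 FPKM in dKO, a log2 fold change of 0.37. Wars, the tryptophan enzyme, read 39.6 and 39.1 against 40.1 and 42.3 FPKM, a log2 fold change of 0.06. No cytosolic member rose at this threshold in the main limma fit, 1 did at an unadjusted p under 0.05, and 2 did by voom on the recovered reads. By limma 2 rose with libraries scaled to the same total and 1 with scaling by median ratio.

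Of the mitochondrial members, Cars2 moved against its cytosolic partner. It read 1.73 and 1.53 FPKM in the Jak2V617F GLUT1/3 WT clones and 3.88 and 4.07 FPKM in the dKO clones, a log2 fold change of 0.92 (SE 0.128, adjusted p = 0.00261). The GLUT1/3 WT clones held the lowest Cars2 values of all 8 libraries. Cars2 lies on chromosome 8 (11563977 to 11600783, reverse strand) and shares 984 bases with Naxd on the other strand, and the strand setting of the counting is not stated, so reads of the 2 genes cannot be told apart there. Pars2 (proline) rose from 3.27 and 2.55 to 4.04 and 4.24 FPKM (log2 fold change 0.40, adjusted p = 0.0386) and Sars2 from 3.23 and 3.77 to 4.52 and 4.94 FPKM (0.35, adjusted p = 0.0424). Ears2 fell from 2.80 and 2.60 to 1.61 and 1.39 FPKM, a log2 fold change of -0.57 (adjusted p = 0.0219). Fars2, Rars2 and Hars2 were lower by -0.49, -0.44 and -0.28. Ears2 shares 89 bases with Ubfd1, Fars2 115 bases with Lyrm4 and Hars2 198 bases with Hars, each on opposite strands, and Mars1 shares 68 bases with Ddit3 in the same way.

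In these 4 clones the erythroid marker sum was higher and the myeloid progenitor sum lower where the cytosolic synthetase sum was lower, with the ranges given above. The calls for Aars, Cars, Cars2, Dars, Eprs, Gars, Iars, Mars1, Nars, Sars, Tars and Yars held under all 18 alternative settings and left-out libraries. A fit of these 4 libraries alone called 12 members, 11 of them lower. With libraries scaled to the same total, 16 members fell and 6 rose.

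**Figure D2:**
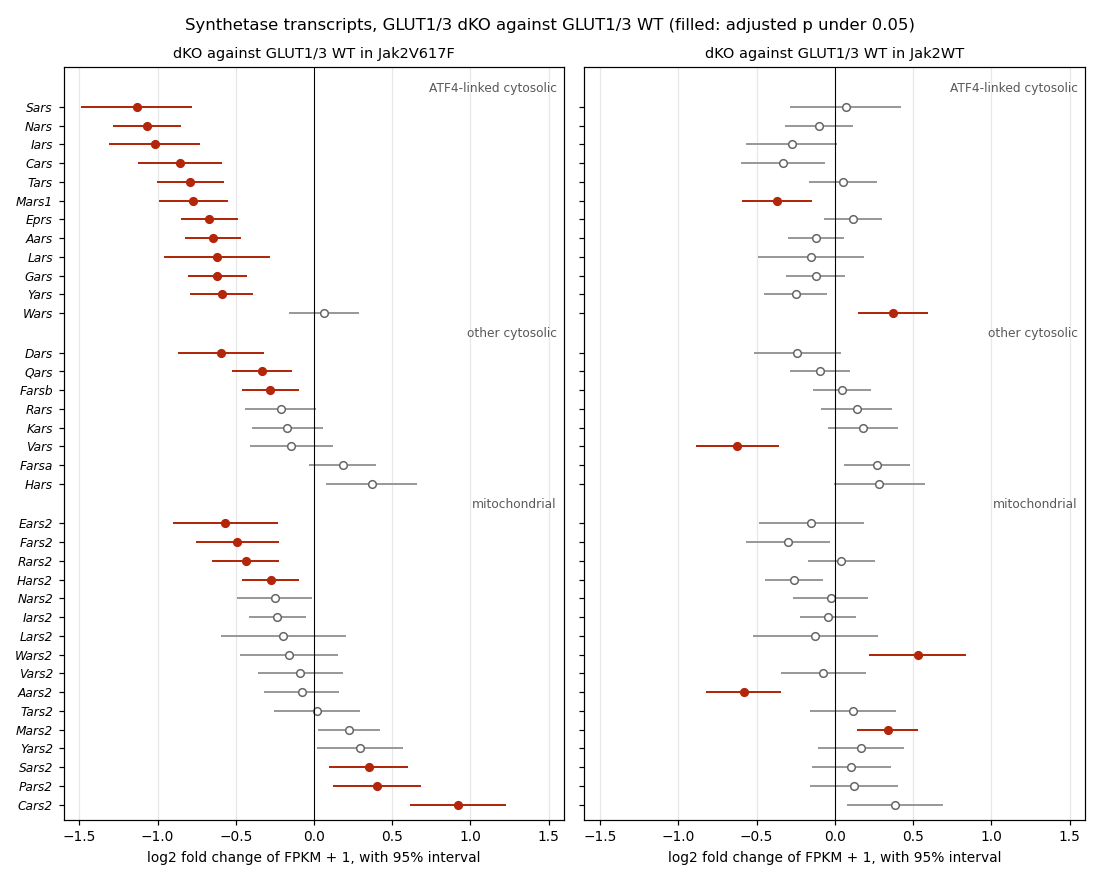
Log2 fold change of FPKM + 1 with its 95% interval for each of 36 synthetases, dKO against GLUT1/3 WT, in Jak2V617F (left) and Jak2WT (right). Filled red points pass an adjusted p of 0.05 and open points do not. In Jak2V617F 11 of the 12 ATF4-linked cytosolic members lie left of 0 and filled, and in Jak2WT 1 of them does.

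The same loss of GLUT1/3 was then compared in the Jak2WT background, where fewer genes of any kind were called. Here 4 members fell and 3 rose, while 6.06% of all genes tested fell and 7.62% rose. Among the cytosolic members 2 fell (Vars and Mars1) and 1 rose (Wars), with a median of -0.099 against 0.008 for all genes.

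Vars, the valine enzyme, read 70.0 and 74.2 FPKM in Jak2WT GLUT1/3 WT and 44.5 and 48.4 FPKM in Jak2WT dKO, a log2 fold change of -0.62 (SE 0.111, adjusted p = 0.0149). Aars2, the mitochondrial alanine enzyme, read 6.94 and 6.98 against 4.07 and 4.57 FPKM, a log2 fold change of -0.58 (SE 0.0994, adjusted p = 0.0136). In both genes the Jak2WT GLUT1/3 WT clones held the highest values of the series. Mars1 was lower by -0.37 (adjusted p = 0.0406). Wars2 read 2.54 and 2.82 against 4.47 and 4.16 FPKM (log2 fold change 0.53, adjusted p = 0.0392), so both tryptophan enzymes were higher, Wars itself by 0.37 (adjusted p = 0.04). Mars2 rose by 0.34 (adjusted p = 0.037). Without any 1 of these 4 libraries the count fell from 7 to 1, and without either Jak2V617F GLUT1/3 WT clone it was 4. No filter gave 3 calls and voom 12. Scaled to the same total, 7 members fell and 0 rose by limma, with 3 higher at an unadjusted p under 0.05.

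Whether the backgrounds differed in their response was tested as the interaction, the dKO change in Jak2V617F less that in Jak2WT. It was lower for 7 members, all cytosolic or shared, and higher for 1, where 5.91% and 4.72% of all genes were called. The 7 were Sars (-1.20, SE 0.209, adjusted p = 0.0185), Nars (-0.97, SE 0.127, adjusted p = 0.0115), Tars (-0.84, SE 0.126, adjusted p = 0.015), Eprs (-0.78, SE 0.108, adjusted p = 0.0124), Iars (-0.74, SE 0.172, adjusted p = 0.039), Aars (-0.52, SE 0.104, adjusted p = 0.0266) and Gars (-0.49, SE 0.111, adjusted p = 0.036). In Jak2WT the same genes read 53.1 and 51.5 against 56.6 and 53.2 FPKM for Sars, and 142 and 139 against 132 and 131 FPKM for Nars. The median of the 20 cytosolic members was -0.38, that of the mitochondrial members -0.073 and that of all genes -0.039.

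No interaction was called by limma without Jak2WT GLUT1/3 WT clone 1, where 3 members were higher and 10 lower at an unadjusted p under 0.05. The same held without clone 3 of that group (3 higher, 15 lower) and without Jak2WT dKO clone 1 (2 higher, 13 lower). Without Jak2WT dKO clone 3 there were 5 calls, and without Jak2V617F GLUT1/3 WT clone 1 or clone 3 there were 4 and 5. Scaling to the same total gave 4 lower and 3 higher and shifted the median of all genes by 0.159, and the cytosolic median less that of all genes was then -0.31.

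The next comparison set Jak2V617F against Jak2WT with intact GLUT1/3, and so held the group with the highest cytosolic sum. It shares the Jak2V617F GLUT1/3 WT clones with the first comparison, so the 2 sets of values are not independent. Of the 20 cytosolic members 10 were higher in Jak2V617F, with a median of 0.34 against 0.008 for all genes. Over all members 11 rose and 4 fell, while 15.3% of all genes tested rose and 14.9% fell. Sars rose from 53.1 and 51.5 to 92.0 and 90.4 FPKM (log2 fold change 0.79, SE 0.148, adjusted p = 0.00784). Nars rose from 142 and 139 to 220 and 234 FPKM (0.68, SE 0.0899, adjusted p = 0.00231). Both genes showed the mutant clones apart from the other 6 libraries.

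Iars read 58.2 and 57.2 FPKM in Jak2WT and 81.0 and 90.5 FPKM in Jak2V617F, a log2 fold change of 0.56 (adjusted p = 0.0133). Tars read 40.4 and 41.6 against 56.7 and 63.8 FPKM (0.54, adjusted p = 0.00487). Aars, the alanine enzyme, read 38.2 and 39.0 against 53.7 and 57.4 FPKM (0.51, adjusted p = 0.00296). For each of them the Jak2V617F GLUT1/3 WT clones were again the highest of the 8. Yars, the tyrosine enzyme, read 31.2 and 31.7 against 43.5 and 47.2 FPKM (0.51, adjusted p = 0.00452). Eprs, Gars, Mars1 and Qars completed the cytosolic members that rose, by 0.51, 0.45, 0.34 and 0.34. Rars2 rose by 0.49 as the one mitochondrial member, from 13.5 and 12.6 to 19.6 and 17.9 FPKM.

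The members that fell were all mitochondrial. Cars2 read 2.94 and 2.68 against 1.73 and 1.53 FPKM (-0.53, SE 0.128, adjusted p = 0.0185). These ranges did not overlap, as the rule for members given in full required. Aars2 and Iars2 were lower by -0.33 and -0.31. Cars, whose partner Cars2 fell, read 16.6 and 16.0 against 15.8 and 19.5 FPKM and did not pass the test. No cytosolic member fell in the main limma fit, 2 did at an unadjusted p under 0.05, and 3 did by voom. Limma with libraries scaled to the same total also called 3 lower. Without Jak2WT GLUT1/3 WT clone 1 or clone 3 the calls numbered 8 and 7 in place of 15. Scaled to the same total, 8 rose and 9 fell, and the median of all genes shifted by -0.127. Relative to that shifted median the cytosolic members stood at 0.31.

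The last comparison set the backgrounds against each other in the absence of GLUT1/3. Between Jak2V617F dKO and Jak2WT dKO 5 members were lower, where 9.96% of all genes tested fell and 7.12% rose. No member rose by limma, none did at an unadjusted p under 0.05 and none by voom. Iars2, the mitochondrial isoleucine enzyme, read 13.8 and 13.8 FPKM in Jak2WT dKO and 9.51 and 9.52 FPKM in Jak2V617F dKO, a log2 fold change of -0.49 (SE 0.0744, adjusted p = 0.0059). It was lower in Jak2V617F with and without GLUT1/3, and it shares 2034 bases with Rab3gap2 on the other strand. Cars read 13.2 and 12.3 against 8.78 and 9.75 FPKM (-0.42, adjusted p = 0.0399), and Wars 56.3 and 49.4 against 40.1 and 42.3 FPKM (-0.35, adjusted p = 0.0416). Farsa and Eprs were lower by -0.32 and -0.28. Without 1 of the 8 libraries the count was between 1 and 4, being 1 without any of the 4 Jak2WT libraries or Jak2V617F dKO clone 1, and 3 without either Jak2V617F GLUT1/3 WT clone. Iars2 alone held under every setting.

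**Figure D3:**
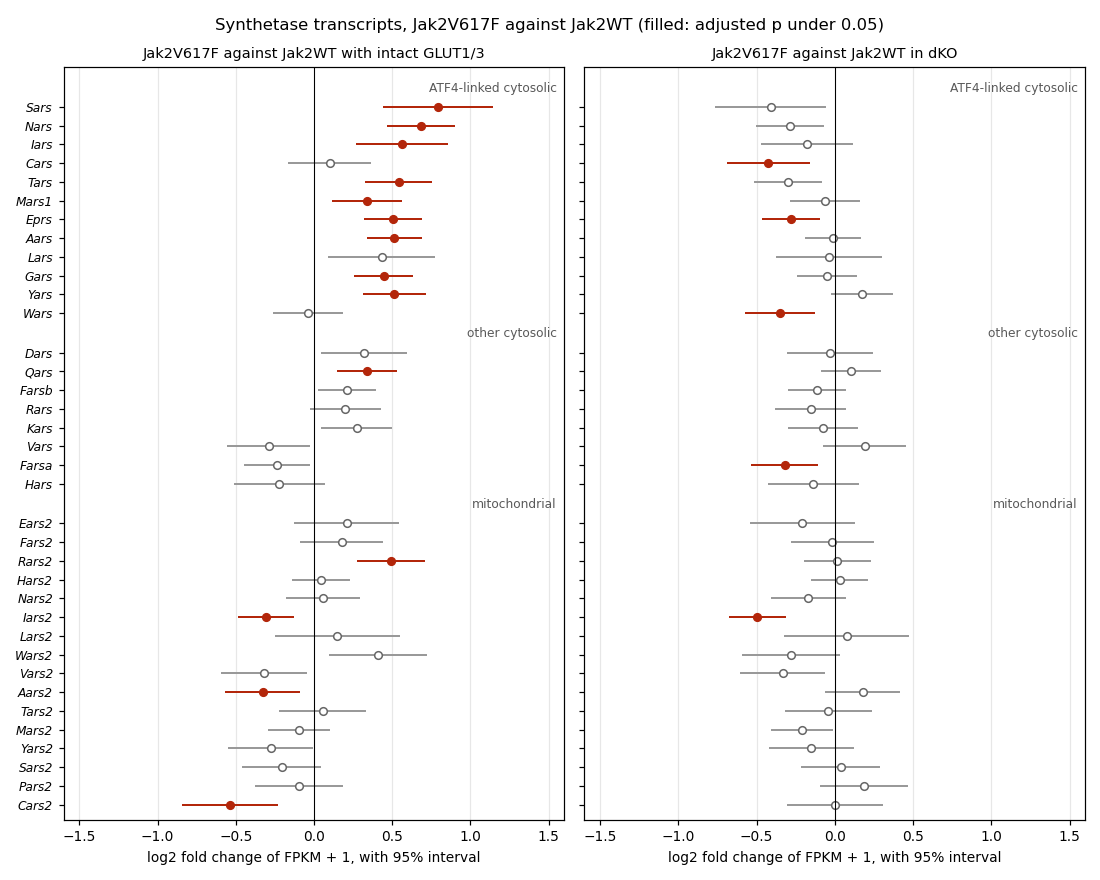
Log2 fold change of FPKM + 1 with its 95% interval for each of 36 synthetases, Jak2V617F against Jak2WT, among GLUT1/3 WT clones (left) and among dKO clones (right), in the same gene order as the plot of dKO changes. Filled red points pass an adjusted p of 0.05. On the left 9 of the 12 ATF4-linked cytosolic members are filled to the right of 0, and on the right the 5 filled members all lie to the left.

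The cytosolic members did not move alike, and they were therefore described by group. The 12 members known as targets of ATF4 (Aars, Cars, Eprs, Gars, Iars, Lars, Mars1, Nars, Sars, Tars, Wars, Yars) held 11 of the 14 that fell in Jak2V617F dKO, with a median of -0.72, whereas 3 of the 8 other cytosolic members fell, with a median of -0.19. With intact GLUT1/3, 9 of the 12 were higher in Jak2V617F (median 0.51) and 1 of the other 8 (median 0.21). All 7 negative interactions were among the 12, and each of the 12 had a negative estimate, with a median of -0.52. In Jak2WT the 12 gave 1 member higher and 1 lower on loss of GLUT1/3. Scaled to the same total, limma called 11 of the 12 lower in Jak2V617F dKO and 7 higher in Jak2V617F with intact GLUT1/3. The negative interactions called were then 4. These counts all draw on the Jak2V617F GLUT1/3 WT clones, and the list was chosen with earlier results of these data known. They are therefore a description and not separate lines of evidence.

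Summed over the 12, the level was 651 and 663 FPKM in Jak2WT GLUT1/3 WT, 623 and 614 in Jak2WT dKO, 915 and 972 in Jak2V617F GLUT1/3 WT, and 512 and 578 in Jak2V617F dKO. The 8 others summed to between 353 and 429 FPKM in all libraries. The transcript of Atf4 itself read 106 and 111, 134 and 133, 177 and 182, and 107 and 115 FPKM in the same order. It was highest in Jak2V617F GLUT1/3 WT, as was the sum of the 12, but the lowest Atf4 values were shared by Jak2WT GLUT1/3 WT and Jak2V617F dKO. Atf4 fell on dKO in Jak2V617F (log2 fold change -0.69, SE 0.0774, adjusted p = 0.00129) and rose on dKO in Jak2WT (0.30, adjusted p = 0.0461), where the 12 had a median of -0.12. ATF4 is controlled mainly at translation, and its protein was not measured in these libraries.

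**Figure D4:**
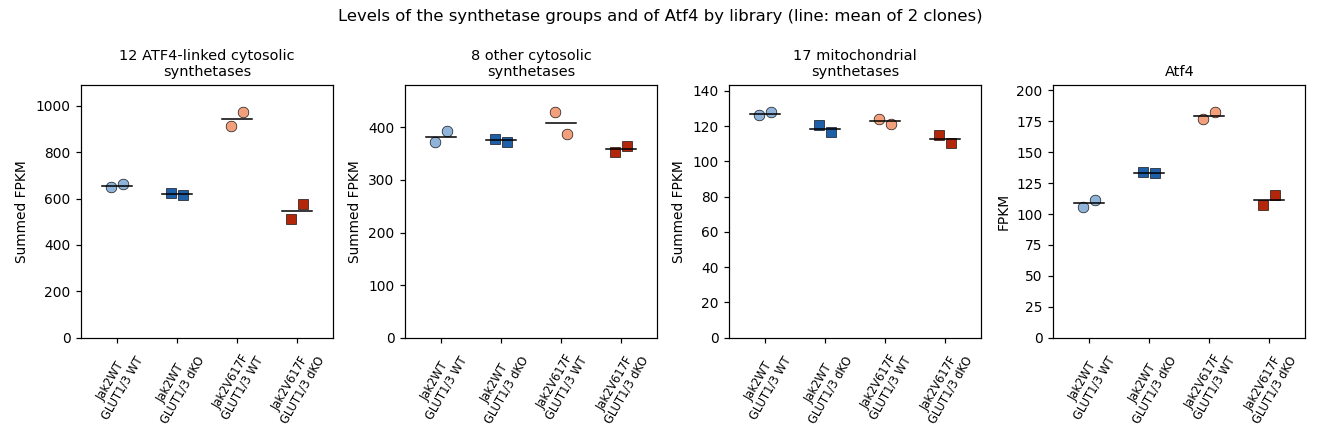
Summed FPKM of the 12 ATF4-linked cytosolic, the 8 other cytosolic and the 17 mitochondrial synthetases, and FPKM of Atf4, in each library by group, with axes from 0 and a line at the mean of 2 clones. The ATF4-linked sum reaches 915 and 972 in Jak2V617F GLUT1/3 WT and 512 and 578 in Jak2V617F dKO, and the mitochondrial sum stays between 111 and 128.

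Beyond the synthetases, 27 other known ATF4 targets, such as amino acid transporters and enzymes of serine and asparagine synthesis, were listed, of which 21 were tested. Of these 19 fell in Jak2V617F dKO, with a median of -0.95, and 13 rose in Jak2V617F with intact GLUT1/3, with a median of 0.55. In Jak2WT dKO 2 rose and 2 fell, with a median of -0.062, and the interaction was called lower for 15. Between the dKO groups 11 were lower and 1 higher in Jak2V617F, with a median of -0.39. The backgrounds for these counts are the percentages given with each comparison.

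Other divisions of the cytosolic members were described in the same way. The divisions overlap in their members, and they were not tested against each other. In Jak2V617F dKO 6 of the 8 members of the multisynthetase complex fell (median -0.61) and 8 of the 12 outside it (median -0.60). By catalytic class, 6 of 9 class I and 7 of 10 class II members fell, and Eprs, which carries both folds, fell as well. By the amino acid charged, 9 of 10 enzymes for non-essential amino acids fell (median -0.63) and 5 of 10 for essential ones (median -0.22). The 9 hold Sars, Nars, Cars, Eprs, Aars, Gars, Dars, Yars and Qars, and the tenth, Rars, had a log2 fold change of -0.21. Of the 3 scaffold proteins of the complex, Aimp1 fell in Jak2V617F dKO (-0.54, adjusted p = 0.00441) and rose in Jak2V617F with intact GLUT1/3 (0.59, adjusted p = 0.00316). Aimp2 and Eef1e1 had log2 fold changes of 0.095 and -0.31 in the first of these and 0.19 and 0.28 in the second, none of which passed the test.

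For 17 pairings of a cytosolic with a mitochondrial enzyme of the same amino acid, the ratio of the FPKM values was taken within each library. It was widest for Nars over Nars2, between 40.4 and 82.2, and narrowest for Lars over Lars2, between 1.47 and 2.96. Cars over Cars2 varied the most among groups. It was 5.6 and 6.0 in Jak2WT GLUT1/3 WT, 3.85 and 2.70 in Jak2WT dKO, 9.13 and 12.8 in Jak2V617F GLUT1/3 WT, and 2.26 and 2.40 in Jak2V617F dKO. No pair of groups overlapped in this ratio. Sars over Sars2 was 28.5 and 24.0 in Jak2V617F GLUT1/3 WT and 7.62 and 9.90 in Jak2V617F dKO, with Jak2WT clones between 11.3 and 13.7 whether or not GLUT1/3 was intact. These ratios are given as a description, without a test, and their size across pairings rests on the deposited gene lengths.

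**Figure D5:**
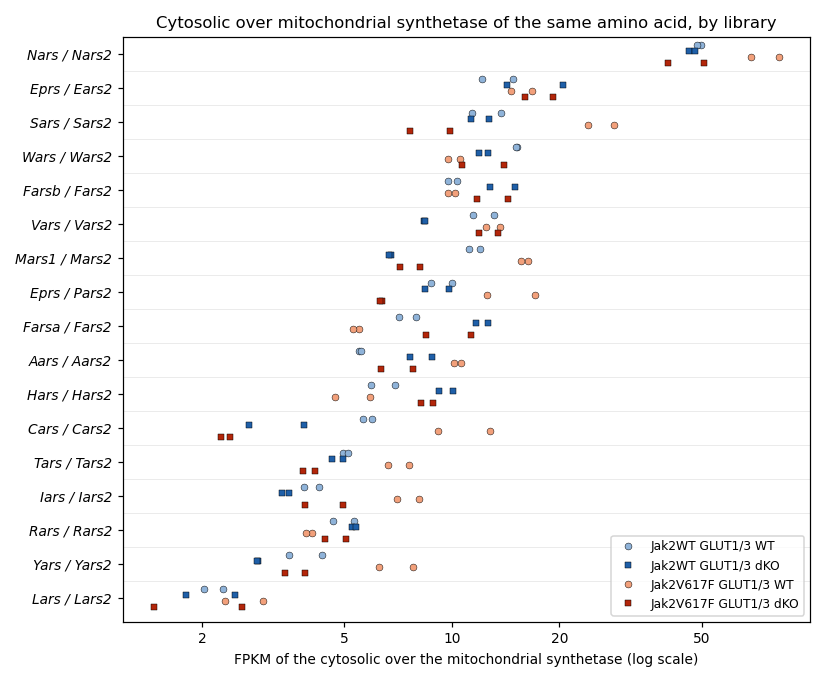
Ratio of the FPKM of the cytosolic to that of the mitochondrial synthetase for the same amino acid (log axis) in each library, ordered by mean ratio. Circles are GLUT1/3 WT and squares dKO clones, in blue for Jak2WT and red for Jak2V617F. For Cars over Cars2 the Jak2V617F GLUT1/3 WT clones lie at 9.13 and 12.8 and the Jak2V617F dKO clones at 2.26 and 2.40.

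As many ATF4-linked members moved together, the start of each gene was searched for the core of the C/EBP-ATF response element, TGATGNAA, and for the E-box CACGTG, on both strands, from 250 bases before to 50 after the start of the canonical transcript in GRCm39 (GENCODE). The first motif was found at 5 of the 37 members (13.5%) and at 3.84% of 21770 protein-coding genes. The 5 were Aars, Cars, Gars, Iars and Tars, all ATF4-linked and all among the 14 cytosolic members that fell in Jak2V617F dKO. Sars, Nars and Mars1, which fell by as much, held no match in this window, so the motif did not divide the members by size of change. The E-box was found at 4 members (Aars, Farsb, Iars and Tars, 10.8%) and at 7.81% of all genes. Aars, Iars and Tars thus held both motifs, whose matches share no base. No mitochondrial member held either. In Cars, Gars and Iars the match began 28, 13 and 38 bases into the transcript. The stretches before the start of Tars and Aars, the members with a match upstream, are shown with the match in capitals. Both read 5′ to 3′ on the strand of the gene, and the motif lies on the opposite strand. That of Tars is chr15:11399752-11399799 (reverse strand) and that of Aars chr8:111760443-111760507 (forward strand), each ending at the base before the start.
Tars: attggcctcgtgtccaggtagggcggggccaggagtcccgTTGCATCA
Aars: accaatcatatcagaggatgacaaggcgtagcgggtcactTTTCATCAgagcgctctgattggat
The match in Tars directly adjoins the start, at base -8, and that in Aars begins at base -25, with a further match at -146. Tars and Aars fell by similar amounts in Jak2V617F dKO, -0.79 and -0.64, and both had a negative interaction. A match is a description of letters and not a measured binding site.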

How the data were processed

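The re-analysis used 8 RNA sequencing libraries of 32D clones, grouped by the labels of the series, with 0 library columns left unassigned. The authors deposited FPKM values, obtained from poly(A)-selected libraries whose reads were cleaned with fastp 1.0.1, aligned to mm39 with HISAT2 2.2.1 and counted with featureCounts 2.0.6, per the submitters' processing notes. The annotation version and strand setting are not given in the sources used here. FPKM times gene length gave whole reads for 100% of values above 0, within 0.01 of a read. Replicates are separately grown clones, whose differences exceeded read sampling noise, so p-values measure the spread between clones. The paper lists the same GLUT1 deletion for all dKO clones within a background. Whether these clones share an edited founder is not stated, so the p-values may leave out variation between founders.

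The 11818 genes that reached 1 FPKM in 2 or more libraries entered a linear model of log2(FPKM + 1) in limma 3.58.1 (R 4.3.3), with 4 group means in 1 fit, the trend option, 4 residual and 3.34 prior degrees of freedom, and Benjamini-Hochberg adjustment over all genes at 0.05. There were 5 comparisons. Fold changes of single members given in full are those of the largest called members without overlap of clones, up to 6 in each direction. The members and gene lists were chosen with earlier results of these data known. ATF4-linked members and the other lists were written from general knowledge, and 1 listed ATF4 target, which has more than 1 row in the table, was not matched. A result on 1 member and 1 feature of the cells are not reported here, and counts over members include that member. The test was checked on simulated data. Alternatives were a pseudocount of 0.1, other filters, empirical Bayes without trend or robust, scaling to the same total or by median ratio, voom on recovered reads, only the groups compared, the clone number as a block, and leaving out each library. Promoter windows were read from GRCm39 with GENCODE canonical starts matched by gene ID, and figures were drawn with matplotlib 3.10.9.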

Additional observations from a re-analysis of the deposited data

Results flagged for a closer look

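A total of 7 synthetases were singled out because their change on loss of GLUT1/3 differed between the Jak2V617F and Jak2WT backgrounds by the interaction test in limma at an adjusted p under 0.05. The difference of the log2 fold changes, Jak2V617F less Jak2WT, was -1.20 for Sars, -0.97 for Nars, -0.84 for Tars, -0.78 for Eprs, -0.74 for Iars, -0.52 for Aars and -0.49 for Gars. For these 7 the fall was in Jak2V617F, and in Jak2WT none of them passed the test. Each of the 7 calls was lost in at least 3 of 17 alternatives, with adjusted p between 0.00462 and 0.14 over them.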

How the results depend on the processing

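Of 1000 values of called members recomputed under the alternatives, 770 stayed past the threshold, 230 did not, and 0 changed direction. In Jak2V617F, dKO against GLUT1/3 WT gave 21 calls, 12 in a fit of only the groups compared, and 15 to 18 with 1 library left out. In Jak2WT it gave 7 calls, 3 with no filter, 12 by voom and 1 to 7 with 1 library left out. Jak2V617F against Jak2WT with intact GLUT1/3 gave 15 calls and 7 to 18 with 1 library left out. In dKO it gave 5 calls, 2 with no filter, 1 without the trend, 3 with the same total, 3 by median ratio, 1 in a fit of only the groups compared and 1 to 4 with 1 library left out. The interaction gave 8 calls, 5 with no filter and 0 to 9 with 1 library left out. Where 1 library of a pair is left out, the lone clone is assumed to vary like the other groups. The cause of these differences was not tested. With clone number added as a replicate block the fit gave 19, 5, 18, 1 and 8 calls in the 5 comparisons. Same-numbered clones were not treated as pairs, since deviations of clones with the same number correlated between -0.25 and 0.15 and no label pairs them. The lowest member, Ears2, rested on at least 176 reads per library.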

Other observations

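The subunits of the cytosolic phenylalanine enzyme, Farsa and Farsb, which work as a pair, did not keep a constant ratio. Farsa over Farsb in FPKM was 0.77 and 0.73 in Jak2WT GLUT1/3 WT, 0.91 and 0.84 in Jak2WT dKO, 0.56 and 0.52 in Jak2V617F GLUT1/3 WT and 0.79 and 0.72 in Jak2V617F dKO. The Jak2V617F GLUT1/3 WT clones lay below all others. The ratio was looked at after its values were seen and was not tested.

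Of 22 tested genes of tRNA maturation and export, 3 fell and 1 rose in Jak2V617F dKO (median -0.034), where 16.2% and 13.7% of all genes did. In Jak2WT dKO 6 rose and 0 fell by limma (median 0.18), against 7.62% and 6.06% of all genes, and 1 was lower at an unadjusted p under 0.05 and 1 by voom. In Jak2V617F with intact GLUT1/3, 8 rose and 1 fell by limma (median 0.13), against 15.3% and 14.9%, and 5 were higher and 3 lower by voom. The 5 genes of selenocysteine synthesis and insertion, whose tRNA is first charged by Sars, changed in differing directions. Those that passed the test are named here, and the share of all genes passing in any of the 5 comparisons was not counted. Sepsecs, the enzyme that completes selenocysteine on its tRNA, fell in Jak2V617F dKO (-0.36, adjusted p = 0.0426) and was higher in Jak2V617F with intact GLUT1/3 (0.46, adjusted p = 0.0167). Sephs2, which makes the selenium donor, was lower in Jak2V617F than in Jak2WT both with intact GLUT1/3 (-0.54, adjusted p = 0.00943) and in dKO (-0.39, adjusted p = 0.0434). Secisbp2, which binds the insertion element of selenoprotein transcripts, rose in Jak2WT dKO (0.52, adjusted p = 0.0255) and was higher in Jak2V617F with intact GLUT1/3 (0.44, adjusted p = 0.0223). Pstk, the kinase that acts before Sepsecs, was lower in Jak2V617F dKO than in Jak2WT dKO (-0.56, adjusted p = 0.0266). Of 5 tested genes that remove wrongly charged amino acids or resemble synthetases, Dtd1 was higher in Jak2V617F with intact GLUT1/3 (0.36, adjusted p = 0.0198), where 15.3% of all genes rose. None of the 5 passed by limma in the other comparisons, whose shares of all genes are given above. Of the 4 genes that formylate or amidate charged tRNA in mitochondria, Gatb fell in Jak2WT dKO (-0.57, adjusted p = 0.0171) and Qrsl1 rose in Jak2V617F with intact GLUT1/3 (0.31, adjusted p = 0.0474).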
